A study of Mus musculus with 6 samples.

Results

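Microglia, the resident macrophages of the brain, carry a set of transcripts used to mark them, not all of which are exclusive to microglia. Here 9 such homeostatic marker genes were followed in mouse cells exposed to neutrophil extracellular traps (NETs, webs of DNA and granule protein from neutrophils). The genes were Tmem119, P2ry12, Cx3cr1, Gpr34, Olfml3, Siglech, Fcrls, Sall1 and Sparc, taken by symbol from a table of 55401 listed genes, and each symbol stood on 1 row. RNA-seq was run on 3 NETs-treated and 3 control samples, and the genotype of all 6 is WT (wild type). Under cell type the labels have BMDM, usually short for bone marrow-derived macrophages, whereas the sample titles begin with BV2, the name of a mouse microglial line made from cultured microglia with an oncogene-carrying virus. Neither the dose of NETs, nor the length of exposure, nor whether the replicates were grown as separate cultures is given in the sources used here, so the p-values rest on a spread among these 6 samples that may be technical only. Total counts ran from 39994613 to 43686531 in the NETs-treated and from 41830940 to 44274445 in the control libraries.

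In the brain, the homeostatic programme depends on signals from the tissue. TGF-beta, acting through its receptors and SMAD proteins, and CSF1 or IL-34, acting through the receptor CSF1R, sustain it, while the transcription factor SALL1 keeps microglia distinct from other macrophages. Microglia taken into culture lose much of the programme, and inflammatory stimuli lower several of its genes in vivo. The surface and secreted products include receptors for nucleotides (P2RY12), for the neuronal chemokine fractalkine (CX3CR1) and for lysophosphatidylserine (GPR34).

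The 9 genes together held few reads in either group. Their summed count was 312, 252 and 250 in the NETs-treated libraries and 329, 267 and 246 in the control libraries. This amounts to between 6.28 and 7.34 CPM (reads scaled to a common library size by the TMM method) in NETs-treated and between 5.42 and 7.65 CPM in control cells, so the summed level overlapped between the groups. Its make-up differed, as Tmem119 was higher and Gpr34, P2ry12 and Cx3cr1 were lower in NETs-treated cells. Of the 9 genes, 5 had enough counts to be tested, 2 had reads but were not tested, and 2 had no read in any library. In bulk RNA, fewer cells that express a gene and less RNA per cell cannot be told apart.

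Of the 5 tested genes, 1 rose and 3 fell at an adjusted p under 0.05 (edgeR quasi-likelihood test, Benjamini-Hochberg adjustment over all 15272 tested genes, n = 3 per group). Over all tested genes 52.7% passed the same threshold, with 25.5% higher and 27.2% lower. For 4 of the 5 genes the NETs-treated and control libraries did not overlap, against 62.4% of all tested genes. With so few members and so high a background, these counts do not set the marker genes apart from other transcripts, and Gpr34 and P2ry12 passed the filter on low counts through their control libraries.

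**Figure D1:**
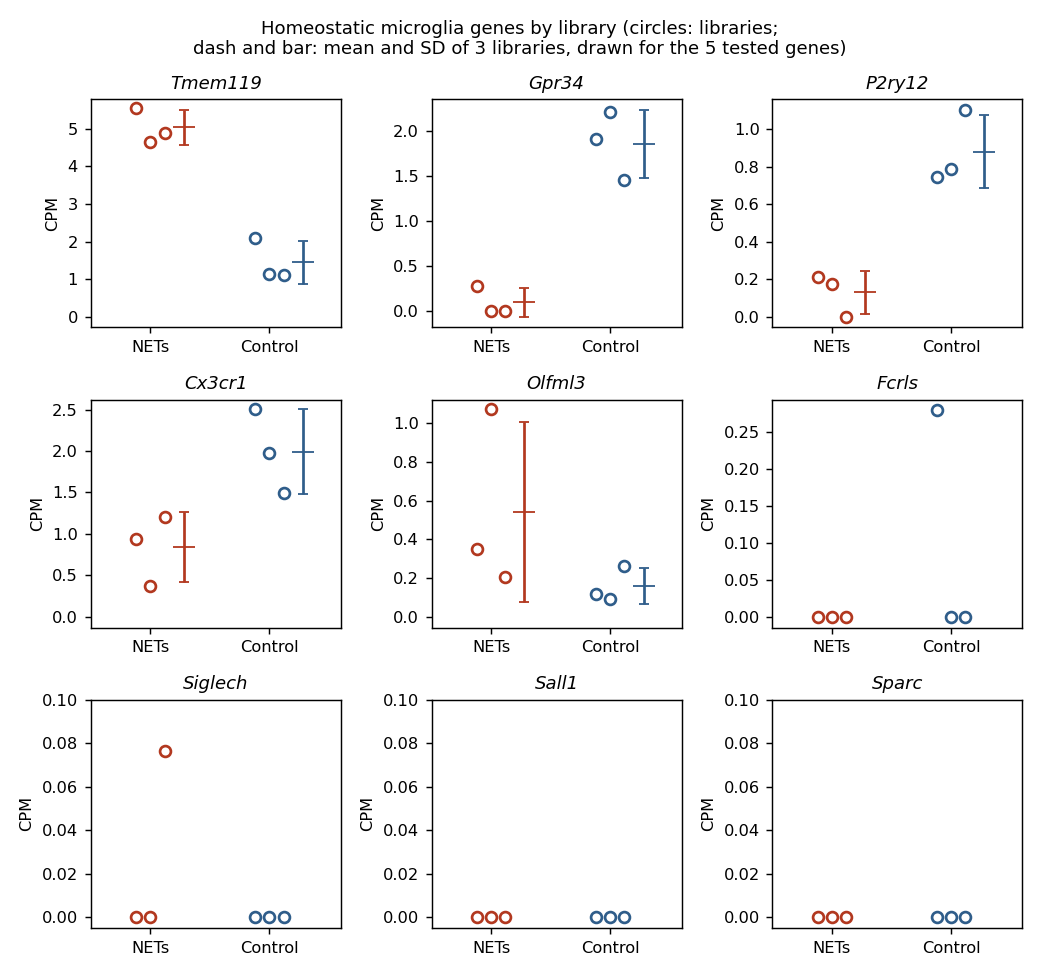
Level of each of the 9 genes in CPM (vertical axes, a separate scale per gene) in the 3 NETs-treated and 3 control libraries. Circles are libraries, and dashes with bars give mean and SD for the 5 tested genes. Tmem119 lies higher in all NETs-treated libraries, Gpr34, P2ry12 and Cx3cr1 lie lower, Olfml3 overlaps, and Sall1 and Sparc lie at 0 throughout.

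Tmem119 encodes a membrane protein that marks microglia among brain macrophages, and it was the gene that rose. It had 236, 187 and 192 reads in the NETs-treated and 90, 49 and 50 reads in the control libraries, which is 5.55, 4.66 and 4.90 CPM against 2.09, 1.14 and 1.10 CPM. Every NETs-treated library was above every control library, and control replicate 1 stood above the other controls. The mean was 5.04 ± 0.459 CPM in NETs-treated and 1.44 ± 0.563 CPM in control cells (SD, n = 3 each), a ratio of 3.49. On the log2 scale the difference was 1.80 ± 0.30 (SE), and edgeR gave an adjusted p of 0.00115. Tmem119 (ENSMUSG00000054675.5) spans 113793729 to 113800516 on chromosome 5, minus strand, in GRCm38, and no other annotated gene overlaps it.

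Gpr34, which encodes a receptor for lysophosphatidylserine, showed the largest fall among the tested members. It had 12, 0 and 0 reads in the NETs-treated libraries against 82, 95 and 66 reads in control. The level was 0.282, 0 and 0 CPM in NETs-treated and 1.91, 2.20 and 1.45 CPM in control cells, so that the groups lay far apart and all NETs-treated reads came from replicate 1. On the log2 scale the difference was -4.22 ± 1.00 (SE), for which edgeR gave an adjusted p of 0.00741. The mean level was 19.7-fold lower in NETs-treated than in control cells, and without NETs-treated replicate 1 the NETs-treated group stands at 0 reads. The gene (ENSMUSG00000040229.11) spans 13632089 to 13640858 on chromosome X, plus strand. It lies within Cask, which runs on the minus strand and shares 0 exonic bases with it. Cask had a smaller log2 fold change of -0.71 ± 0.09 (SE), and Gpr82, another receptor gene inside Cask on the strand of Gpr34, had 0 reads in all 6 libraries.

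P2ry12 encodes the receptor for ADP that steers microglial processes towards injury, and it fell to a mean of 0.129 ± 0.113 CPM in NETs-treated cells, against 0.878 ± 0.195 CPM in control (SD, n = 3 each). The libraries held 9, 7 and 0 reads in the NETs-treated group and 32, 34 and 50 reads in the control group. The groups did not overlap, and NETs-treated replicate 3 had none. Its log2 difference of -2.73 ± 0.83 (SE) had an edgeR adjusted p of 0.0223. This call was lost without control replicate 1 (adjusted p = 0.0579), control replicate 2 (0.0601), control replicate 3 (0.0878) or NETs-treated replicate 2 (0.0550), and also without a filter on low counts (0.0587). Over its alternatives the edgeR, limma, DESeq2 and deposited adjusted p ran from 0.00322 to 0.0878.

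P2ry12 (ENSMUSG00000036353.13) spans 59216272 to 59262871 on chromosome 3, minus strand, and lies inside Med12l, a gene of the plus strand with which it shares 9 exonic bases. Med12l itself fell, with 48, 37 and 49 reads in NETs-treated and 502, 608 and 466 reads in control libraries. The log2 difference of Med12l was -3.44 ± 0.21 (SE), with edgeR's adjusted p at 4.75e-06. The kit marked the strand, per the labels' protocols, but the strand setting of the counting is not given in the sources used here, and the part of Med12l reads in the P2ry12 counts was not tested. Among receptor genes inside Med12l on the same strand as P2ry12, P2ry14 and Gpr171 had 0 reads in all 6 libraries. P2ry13 had 3, 0 and 0 reads in the NETs-treated and 25, 35 and 38 reads in the control libraries.

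Cx3cr1, the receptor through which microglia receive fractalkine from neurons, had 40, 15 and 47 reads in the NETs-treated and 108, 85 and 68 reads in the control libraries. Its level was 0.941, 0.374 and 1.20 CPM against 2.51, 1.97 and 1.498 CPM, without overlap, the nearest libraries being NETs-treated replicate 3 and control replicate 3. The mean of 0.838 ± 0.423 CPM in NETs-treated cells was 2.38-fold lower than the 1.99 ± 0.507 CPM of control cells (SD, n = 3 each). The log2 difference was -1.25 ± 0.45 (SE), and edgeR's adjusted p of 0.0463 was close to the threshold. The call was lost when any library other than NETs-treated replicate 3 was left out, with an edgeR adjusted p of up to 0.15 (without control replicate 1), and without a filter on low counts (0.0848). Cx3cr1 (ENSMUSG00000052336.7) is annotated from 119901616 to 120069879 on chromosome 9, minus strand, a span that takes in several other genes. Of these, only Gm33858, an antisense RNA gene with at most 9 reads in any library, shares exonic bases with it.

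Reference promoters were available for 7 of the 9 genes in RefSeq on GRCm38.p6, as windows from 250 bases before to 50 bases after the start, and Tmem119 and Gpr34 had no entry. The windows of P2ry12 (chr3:59262936-59263235, minus strand) and Cx3cr1 (chr9:120068247-120068546, minus strand) are shown because both transcripts fell and because SMAD proteins, which carry the TGF-beta signal behind the homeostatic programme, bind DNA with the letters CAGAC. Capitals mark CAGAC or its reverse complement GTCTG.
P2ry12: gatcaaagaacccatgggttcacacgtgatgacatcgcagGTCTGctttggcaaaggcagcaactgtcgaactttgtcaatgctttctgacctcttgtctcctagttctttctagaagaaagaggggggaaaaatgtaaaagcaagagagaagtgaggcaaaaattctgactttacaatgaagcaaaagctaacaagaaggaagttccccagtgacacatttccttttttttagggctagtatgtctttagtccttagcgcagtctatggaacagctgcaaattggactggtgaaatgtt
Cx3cr1: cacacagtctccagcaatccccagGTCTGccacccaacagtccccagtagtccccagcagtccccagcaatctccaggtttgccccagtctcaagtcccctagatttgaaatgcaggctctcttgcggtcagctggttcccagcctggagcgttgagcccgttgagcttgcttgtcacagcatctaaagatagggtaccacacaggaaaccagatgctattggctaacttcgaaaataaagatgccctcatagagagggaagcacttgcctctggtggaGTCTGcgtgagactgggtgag
The P2ry12 window held 1 such match and the Cx3cr1 window 2. Over all 9 windows of the 7 genes, 6 held CAGAC on either strand, against 49.6% of 32851 promoter windows. The letters GAGGAA, the core bound by the macrophage factor PU.1, stood on either strand in 2 of the 9 windows, those of Fcrls and Siglech, against 28.3% of all windows. A match describes the sequence without showing that a factor binds it. Whether the matches bear on the lower levels of P2ry12 and Cx3cr1 was not tested.

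Olfml3, which encodes a secreted olfactomedin-like protein, was tested but did not pass. It had 15, 43 and 8 reads in NETs-treated and 5, 4 and 12 reads in control libraries. The groups overlapped, and NETs-treated replicate 2 held most of the reads of its group. The mean was 0.543 ± 0.464 CPM in NETs-treated and 0.158 ± 0.0930 CPM in control cells (SD, n = 3 each), with a log2 fold change of 1.76 ± 0.80 (SE) and an adjusted p of 0.0949 in edgeR. Without NETs-treated replicate 2 the log2 fold change was 0.82, and the adjusted p ran from 0.0519 to 0.472 over the alternatives.

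The other 4 genes were at or near 0. Fcrls, a mouse gene for an Fc receptor-like scavenger protein, had 0 reads in every NETs-treated library and 12, 0 and 0 reads in control, so without control replicate 1 it was at 0 in both groups. Siglech, a sialic acid-binding lectin gene also used as a marker of plasmacytoid dendritic cells, had 0, 0 and 3 reads in NETs-treated and none in control libraries. Sall1, the transcription factor of microglial identity, and Sparc, which encodes a matrix-associated glycoprotein, had 0 reads in all 6 libraries. A count of 0 over a group allows a level of up to 0.0246 CPM in the NETs-treated and 0.0228 CPM in the control group (3 counts over the 3 libraries, counting error only). Sall1 and Sparc were thus not detected in this table, and no fold change is given for these 4 genes. A 0 here is a count from a program whose settings the sources used here do not give. Gapdh, usually among the most abundant transcripts, had 19.4 ± 3.10 CPM in NETs-treated and 21.7 ± 7.82 CPM in control cells (SD, n = 3 each) in the same table, and S100a9 had 0 reads throughout beside detected S100a8. Whether reads of a gene at 0 were lost in counting was not tested, so a 0 is not shown to mean absence of the transcript.

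Levels of different genes were compared per kilobase of merged exons. In NETs-treated cells Tmem119 led with 2.18 ± 0.198 CPM per kilobase (SD, n = 3). Cx3cr1 followed with 0.186 ± 0.0938, Olfml3 with 0.0882 ± 0.0754, P2ry12 with 0.0506 ± 0.0444 and Gpr34 with 0.0450 ± 0.0780 CPM per kilobase. Only the step below Tmem119 exceeded the spread between libraries. In control cells the order was Gpr34 with 0.888 ± 0.181, Tmem119 with 0.624 ± 0.243, Cx3cr1 with 0.443 ± 0.113 and P2ry12 with 0.345 ± 0.0765 CPM per kilobase, and the library ranges of neighbours in this order overlapped. Fcrls and Olfml3 came next, at 0.0399 ± 0.0690 and 0.0256 ± 0.0151 CPM per kilobase, below the range of every gene before them. Of 14846 tested genes with a length, 36.0% had a lower level per kilobase than Tmem119 in NETs-treated cells and 18.6% in control cells. For Gpr34 these shares were 1.93% in NETs-treated and 22.7% in control cells.

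**Figure D2:**
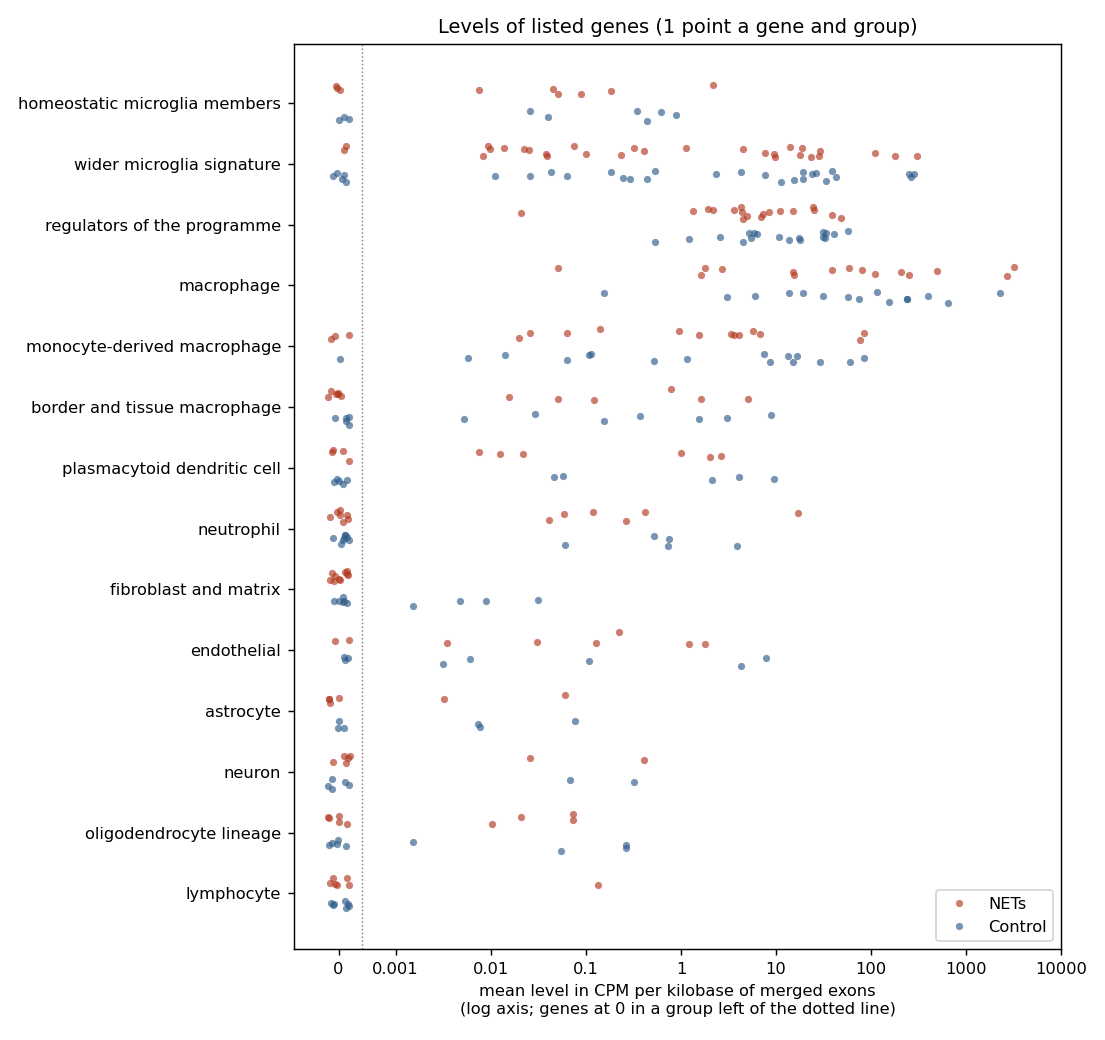
Mean level in CPM per kilobase (log axis) of the genes in each marker list, with NETs-treated cells above control cells within a list and 1 point for a gene and group. Genes at 0 in a group stand left of the dotted line. The homeostatic genes lie at or below 2.18 CPM per kilobase, while most macrophage markers lie above 1.

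The labelled cell type was set against marker lists on the same scale. The median over the 9 homeostatic genes was 0.0450 CPM per kilobase in NETs-treated and 0.0399 in control cells. The NETs-treated median is the value of Gpr34 (12, 0 and 0 reads). The control median is that of Fcrls (12, 0 and 0 reads), which was not tested. Their closeness therefore does not show that levels were alike in the groups. Over 15 macrophage markers the median was 57.8 in NETs-treated and 73.8 in control cells. The macrophage list was present in full, with 15 of 15 genes tested, and its most abundant members were Cd14 (co-receptor for lipopolysaccharide), Lyz2 (lysozyme) and Cd68 (a lysosomal membrane protein). Within this list Mrc1, the mannose receptor, stood at 0.326 ± 0.0842 CPM in NETs-treated and 0.979 ± 0.0868 CPM in control cells (SD, n = 3 each). Among 16 markers that part monocyte-derived macrophages from microglia, 13 were tested, and Cd44, Emilin2 and Itga4 were the most abundant. The monocyte markers Ccr2, Ly6c2 and Ly6c1 had 0 reads in the NETs-treated libraries and at most 0.116 CPM in any control library. Border and tissue macrophage markers had 5 of 12 genes at 0 in all libraries, among them the scavenger receptor gene Cd163. The most abundant of that list were the carbonyl reductase gene Cbr2, at 6.76 ± 0.655 CPM in NETs-treated and 11.8 ± 0.84 CPM in control cells, the scavenger receptor gene Marco, at 3.15 ± 1.02 CPM in NETs-treated and 5.92 ± 2.63 CPM in control cells, and the adhesion gene Icam2 (SD, n = 3 each). Of these Cbr2 and Icam2 fell and Marco did not pass (adjusted p = 0.0634, edgeR). The call of Icam2 was lost without NETs-treated replicate 1 or control replicate 1 (adjusted p up to 0.0830), and Marco passed in 4 other settings (adjusted p from 0.0263 to 0.0476). The lists of fibroblast, astrocyte and lymphocyte markers had 0 tested genes, with at most 13, 9 and 12 reads for any gene in a library.

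Other lists held single genes at higher levels. Summed plasmacytoid dendritic cell markers came to 62.5 to 70.7 CPM in NETs-treated and 94.1 to 96.0 CPM in control libraries, mostly from Tcf4, Lair1 and Cox6a2, while Ly6d, Klk1 and Spib were at 0. The endothelial list summed to 44.5 to 50.02 CPM in NETs-treated and 171 to 181 CPM in control libraries, from Flt1 and Vwf, whereas Cldn5 and Cdh5 were at 0 throughout. Within it Pecam1 did not pass, and Esam had 0.353, 0.948 and 0.638 CPM in NETs-treated cells against 0 reads in control (adjusted p = 0.00190, edgeR). Esam passed the filter on low counts through its NETs-treated libraries. Neutrophil markers summed to 10.9 to 16.8 CPM in NETs-treated and 6.52 to 8.57 CPM in control libraries, with 7 of 13 genes at 0, Ly6g and S100a9 among them. The higher sum came from S100a8, at 11.7 ± 2.67 CPM in NETs-treated and 2.68 ± 0.591 CPM in control cells (SD, n = 3 each). The other tested genes of that list had negative log2 fold changes, with -2.57 for Prtn3 (adjusted p = 0.0403, edgeR), -0.98 for Cxcr2 (adjusted p = 0.0383, edgeR) and -0.81 for Mmp8 (not passed). The calls of Prtn3 and Cxcr2 were lost in 5 and 7 other settings, among them the omission of any 1 control library. Prtn3 passed the filter on low counts through its control libraries. Neuronal genes (Gad1, Tubb3) and genes of the oligodendrocyte lineage (Mbp, Cspg4) summed, list by list, to at most 4.94 CPM in any library. The part of these signals in the values of the 9 genes was not tested.

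The wider microglial signature, 30 genes that microglia share in part with other macrophages, was detected more fully. Of its 30 genes 21 were tested, of which 13 fell, 4 rose and 4 did not pass, against the background of 52.7% called, and the median log2 fold change was -0.58 against -0.02 over all tested genes. The protease gene Ctss fell by 0.52 on the log2 scale, and the protease inhibitor gene Cst3 had a log2 fold change of 0.22 ± 0.08 (SE; adjusted p = 0.0347, edgeR), which was lost with scaling by library size only (0.127), without a filter on low counts (0.0685), and without any control replicate (0.0863 to 0.116) or NETs-treated replicate 2 (0.0663). Mertk, a receptor for dying cells, had a log2 fold change of -2.78 ± 0.13 (SE). P2ry13, an ADP receptor gene next to P2ry12, fell too, but passed the filter on low counts through its control libraries. Its fitted log2 fold change of -4.77 ± 0.95 (SE) became -7.97 without NETs-treated replicate 1, which holds the group's 3 reads, so neither value is a bound. Complement genes that mark microglia were low, with C1qb at 0.118, 0.449 and 0.204 CPM in NETs-treated and 0.326, 0.742 and 0.683 CPM in control libraries.

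Genes that regulate the microglial programme were all tested. Of these 18 genes, 11 fell, 4 rose and 3 did not pass, where 27.2% of all tested genes fell and 25.5% rose. Their median log2 fold change was -0.49, against -0.02 over all tested genes. Maf, a transcription factor of macrophage maturity, had the largest change among them. It came to 0.172 ± 0.0626 CPM in NETs-treated and 4.39 ± 0.259 CPM in control cells (SD, n = 3 each). With 9, 4 and 8 reads in the NETs-treated libraries, Maf passed the filter on low counts through its control libraries. Among the most abundant regulators, the transcription factor gene Mef2a fell by 0.72 on the log2 scale, the SMAD partner gene Smad4 rose by 0.62, and Tgfb1, the ligand itself, had -0.43 ± 0.17 (SE) without passing (adjusted p = 0.0567, edgeR). Tgfb1 passed in 7 other settings, with an adjusted p from 0.00323 to 0.0481. Csf1r, the receptor for CSF1 and IL-34, had 88.8, 85.7 and 86.8 CPM in NETs-treated and 187, 169 and 178 CPM in control libraries.

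**Figure D3:**
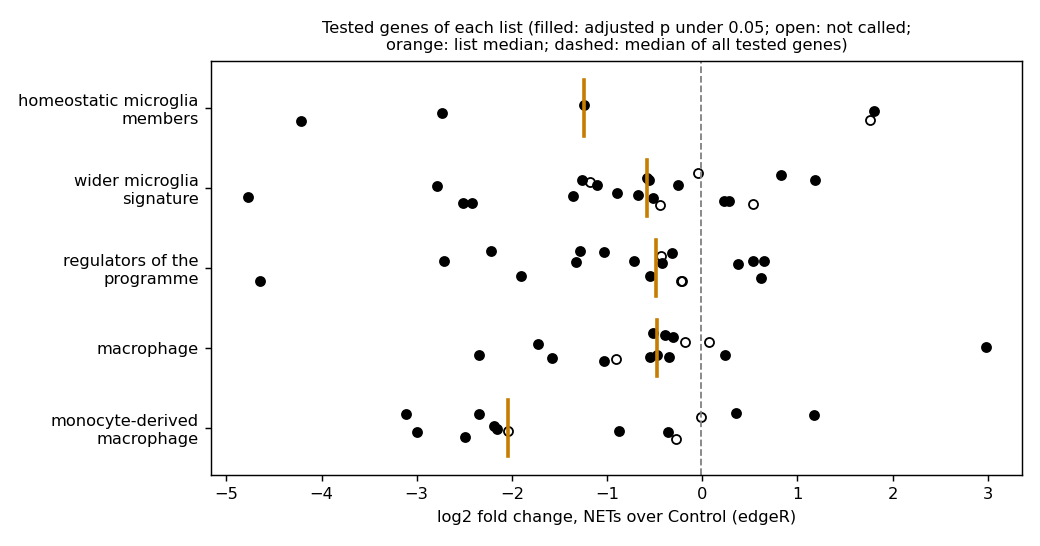
Log2 fold change of NETs-treated over control cells for the tested genes of 5 lists, with calls at an adjusted p under 0.05 filled and other genes open. Orange bars are list medians, at -0.58 for the wider signature and -0.49 for the regulators, and the dashed line is the median of all tested genes at -0.02.

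Macrophage markers moved in both directions, with 2 of 15 higher and 10 lower, against 25.5% higher and 27.2% lower over all tested genes. Cd14 was at 5442 ± 85.7 CPM in NETs-treated and 691 ± 6.08 CPM in control cells (SD, n = 3 each), while the antibody receptor gene Fcgr1 fell by 2.34 on the log2 scale. Of the 13 tested monocyte-derived macrophage markers 2 rose and 8 fell, read against the same shares. Among the 13, F13a1 (called lower) and Ms4a7 (not passed) passed the filter on low counts through their control libraries. The acute phase gene Hp and the inhibitory lectin gene Clec12a fell most, with log2 fold changes of -3.12 ± 0.18 (SE) for Hp and -2.999 ± 0.352 (SE) for Clec12a. Lower transcripts in NETs-treated cells were therefore measured in each of these lists and not in the homeostatic genes alone, and a difference between the lists was not tested. The lists share some genes, such as Csf1r among the regulators and the macrophage markers, so their counts are not independent.

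The genes most like the 3 most abundant tested members were sought among 8780 tested genes averaging 10 CPM or more, by the Pearson correlation of log2 (CPM + 0.5) over the 6 libraries. For Tmem119 they were Pdcd2l (r = 0.999) and Stimate (r = 0.998), for Gpr34 Pmvk (0.998) and Col23a1 (0.998), and for Cx3cr1 Akt2 (0.994) and P4hb (0.994). These values describe libraries that share a treatment within each group, and they do not reflect the size of a change. Akt2, for instance, had a mean of 72.4 ± 3.97 CPM in NETs-treated and 79.3 ± 1.82 CPM in control cells (SD, n = 3 each) and did not pass (adjusted p = 0.158, edgeR), except with scaling by library size only (0.0422).

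The direction of each tested member was the same under every alternative run. Tmem119 and Gpr34 passed in all 15 of them, with adjusted p-values up to 0.00666 for Tmem119 and up to 0.0386 for Gpr34. The alternatives reuse the same samples, and Gpr34 passed the main filter on low counts through its control libraries. P2ry12 lost its call in 5 of 14 and Cx3cr1 in 7 of 15. Under a filter of 1 CPM in 3 samples P2ry12 and Olfml3 were not tested. In the authors' deposited table the log2 fold changes were 1.80 for Tmem119, -4.30 for Gpr34, -2.77 for P2ry12 and -1.25 for Cx3cr1.

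**Figure D4:**
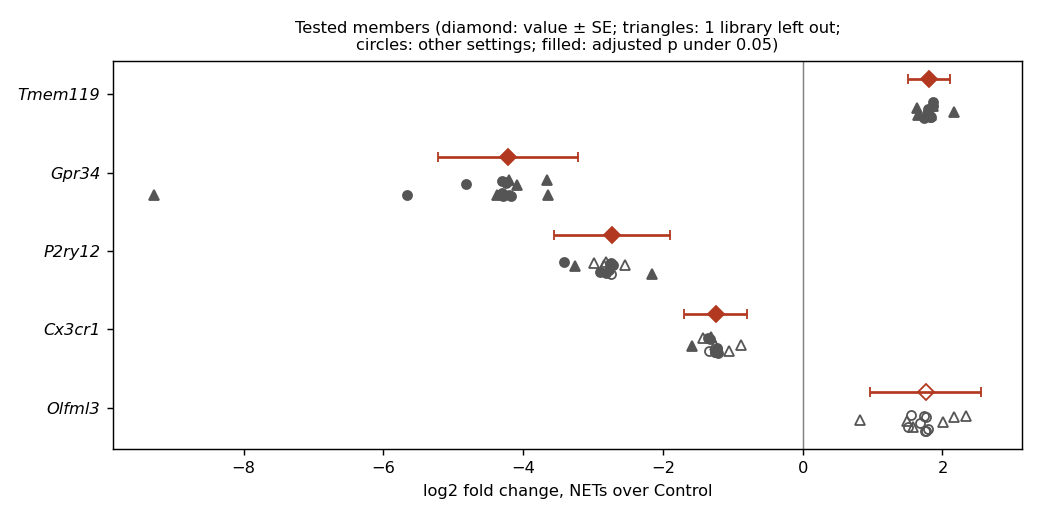
Log2 fold change of NETs-treated over control cells for the 5 tested genes. Diamonds with bars give the value and SE, triangles the values with 1 library left out, and circles the other alternatives, filled where the adjusted p was under 0.05. The point of Gpr34 at -9.28 is the fit without NETs-treated replicate 1, where the group is at 0, and is no bound.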

How the data were processed

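Raw read counts per gene and sample were deposited by the authors, per the file headers, with normalised counts, a signal in which each sample's deposited counts are divided by a constant (checked on the values), and log2 fold changes with raw and adjusted p-values from the authors' own comparison. HISAT2, DESeq2 and the builds mm10 and rn6 are named in the submitters' processing notes without roles. Counting program, strand setting and annotation: not given in the sources used here. Overlapping genes and near-identical copies are therefore uncertain. Positions and merged exon lengths came from GENCODE M21 (GRCm38), which holds 54349 of the 55401 deposited gene IDs and all 9 members in the same version.

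The members and lists were chosen with earlier results of these data known. Genes were named by a rule: all members, the 3 most abundant tested and 2 most changed called genes of each other list, 5 reference genes, and the 2 genes most like each of 3 members (predicted genes left out). Names outside it (Cask, Med12l and their nested genes, Gm33858, Csf1r, C1qb, F13a1, Ms4a7, and genes given at or near 0) were chosen after their values were seen. Some genes that the rule names are not reported here.

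All 6 samples entered edgeR 4.0.16 in R 4.3.3 (quasi-likelihood test, two-sided, TMM, minimum count 10, minimum total 15, no covariates, threshold 0.05). The fit was also run on simulated counts with few changed genes and a common spread for all genes. That run does not show how the fit behaves where many genes change or the spread differs by gene. The filter kept 15272 genes with 99.9% of counts. CPM was computed from the deposited counts. Libraries of 1 group differed by more than sampling noise (chi-square per gene 9.38 to 70.8). Alternatives used DESeq2 1.42.0 and limma 3.58.1.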

Additional observations from a re-analysis of the deposited data

How the results depend on the processing

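The 8051 genes called over all tested genes ranged from 6716 to 8497 over the alternatives. The 4 members called became 2 without a filter on low counts and 2 to 4 with 1 library left out. P2ry12 had a log2 fold change of -2.74 without the filter, and -3.26 to -2.16 with 1 library left out. Cx3cr1 had -1.25 without the filter, -1.34 (adjusted p = 0.0538) with the replicate number as a block, and -1.59 to -0.88 with 1 library left out. The cause was not tested. Levels of the tested members moved by less than 1 SD under each other scaling; the authors' normalised counts are not on the CPM scale and gave no level to compare. Under scaling by library size only, the median log2 fold change of all tested genes was -0.09, against -0.02. Of 771 values of the other named genes 720 kept direction and call. The 7 that changed sign belonged to genes that were not called. Cd44 had 0.02 with the filter of 1 CPM in 3 samples. With 1 library left out Cd44 ran from -0.05 to 0.05, Tcf4 from -0.11 to 0, Pecam1 from -0.18 to 0.55, Tubb3 from -0.02 to 0.78 and Gapdh from -0.31 to 0.17. The replicate block gave 8105 calls over all genes and 3 members. Same-numbered samples of the groups correlated in their deviations with r = 0.124, 0.0271 and 0.0671. Of 6 libraries 6 correlated best with their own number, a weak hint from the data and not from the design. The 6 outcomes are drawn from the same set of correlations and are not independent. Gpr34, P2ry12, Cx3cr1 and Olfml3 averaged under 1 CPM in at least 1 group, where depth limits precision.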

Other observations

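The reference genes Actb and Hprt passed the test between the groups. Actb had 3851 ± 255 CPM in NETs-treated and 2416 ± 50.01 CPM in control cells, and Hprt had 115 ± 15.2 CPM in NETs-treated and 148 ± 11.8 CPM in control cells (SD, n = 3 each). Ppia, at 672 ± 201 CPM in NETs-treated and 928 ± 79.5 CPM in control cells, and Tbp, at 74.7 ± 6.79 CPM in NETs-treated and 64.8 ± 13.4 CPM in control cells, did not pass. The call of Hprt was lost without NETs-treated replicate 2 (edgeR adjusted p = 0.0721), control replicate 2 (0.0755) or control replicate 3 (0.0619). Ppia passed with DESeq2 (adjusted p = 0.0283) and, in edgeR, without NETs-treated replicate 3 (0.0357). Gapdh, the low reference gene, has many near-identical copies in the mouse genome.

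S100a9, whose product usually pairs with that of S100a8, had 0 reads in all 6 libraries. S100a8 had 8.80, 12.2 and 14.1 CPM in NETs-treated and 2.47, 2.23 and 3.35 CPM in control libraries. Aif1, the gene of the common microglial stain Iba1, had 0.494, 0.624 and 0.358 CPM in NETs-treated and 0.977, 0.511 and 0.529 CPM in control libraries.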
